A study of Mus musculus with 48 samples.

Results

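The effect of the diet drug atglistatin on gene expression was measured in mixed gastrocnemius, a hindlimb muscle, of mice that received no added corticosterone. The 20 libraries described here were all those of the deposited count table whose names place them in the vehicle arm, out of 48 libraries in the series: 10 from mice on control diet (EtOH_CON) and 10 from mice on the atglistatin diet (EtOH_ATGLi). All were male C57BL6J mice that drank water with 1% ethanol, the vehicle, for 2 weeks, so ethanol was common to both groups, and all are labelled nondiabetic. The EtOH_ATGLi mice ate the Teklad chow with atglistatin milled into it at 571 mg/kg, and the EtOH_CON mice ate the control diet. The other 28 libraries came from mice given corticosterone at 100 ug/ml in the water, 14 on control diet (Cort_CON) and 14 on atglistatin (Cort_ATGLi). Their labels carry no ethanol value, so levels compared between vehicle and corticosterone mice may differ through ethanol as well as corticosterone. These 28 were not divided by diabetic status, and their fed glucose ran from 131 to 407 in Cort_CON and from 95 to 138 in Cort_ATGLi. They were used for the shared estimate of spread and to show where the vehicle response differed. The sources used here give no ages, drug intake or time of sampling. Because insulin and glucose are labelled separately for every library, each was taken as 1 mouse, which the labels do not state. If libraries were technical, the p-values below would measure only technical spread.

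Adipose triglyceride lipase (ATGL, encoded by Pnpla2) removes the first fatty acid from the triglyceride stored in lipid droplets. Abhd5 (also called CGI-58) activates it, G0s2 inhibits it, and perilipins coat the droplet and control access to it. Hormone-sensitive lipase (Lipe) acts on the diglyceride that ATGL leaves. Atglistatin is a small-molecule inhibitor of mouse ATGL, and ATGL-derived fatty acids both feed mitochondrial oxidation and can serve as ligands for PPAR nuclear receptors. The whole animal was exposed, so a change in muscle RNA can follow lipolysis in fat as well as in muscle.

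Depth, as the total count, was 12259500 to 20316002 for EtOH_CON libraries and 10453888 to 24034481 for EtOH_ATGLi libraries. A level of 1 CPM (counts per 1e+06, after scaling) rested on 10 counts in the shallowest library and 24 in the deepest. Muscle fibre genes marked the tissue as labelled: the summed level of 10 fibre markers (Ckm, Acta1, Myh4 and others) was 78519 to 113292 CPM in EtOH_CON and 92454 to 117039 CPM in EtOH_ATGLi. Library p01 of EtOH_CON stood apart, at -62.4 on a first principal component that held 16.6% of the variance of the 20 libraries. Its median correlation with its own group was 0.952, and that of the other 19 libraries was 0.97 or higher. Values without p01 are given for Sparc, Col1a1, Cyp26b1 and Klf9. Library p13 of EtOH_ATGLi, the deepest of the 20, was the only library with both odd and even counts. Even counts only were held by 47 of the 48 libraries. Whether a count stands for 1 read in both cases is not given.

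The transcriptional difference between the diets was small. Of 12592 genes tested, 3 passed edgeR's quasi-likelihood test at an adjusted p (Benjamini-Hochberg) under 0.05, a share of 0.0238%: Fkbp5 and Mepce rose and Sparc fell. The share called higher was 0.0159% and the share called lower was 0.00794%. An unadjusted p under 0.05 was reached by 839 genes (6.66%), 413 higher (3.28%) and 426 lower (3.38%). The median log2 fold change (EtOH_ATGLi over EtOH_CON) of all genes was -0.003, with quartiles of -0.11 and 0.10. For the 7671 genes that averaged 5 CPM or more, the 95% confidence interval lay inside a 2-fold change in either direction for 99.2%. Col1a1, Cyp26b1 and Egr1 were the 3 genes of that abundance with a fitted difference beyond 2-fold. All 3 were lower on atglistatin and none passed the test.

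**Figure D1:**
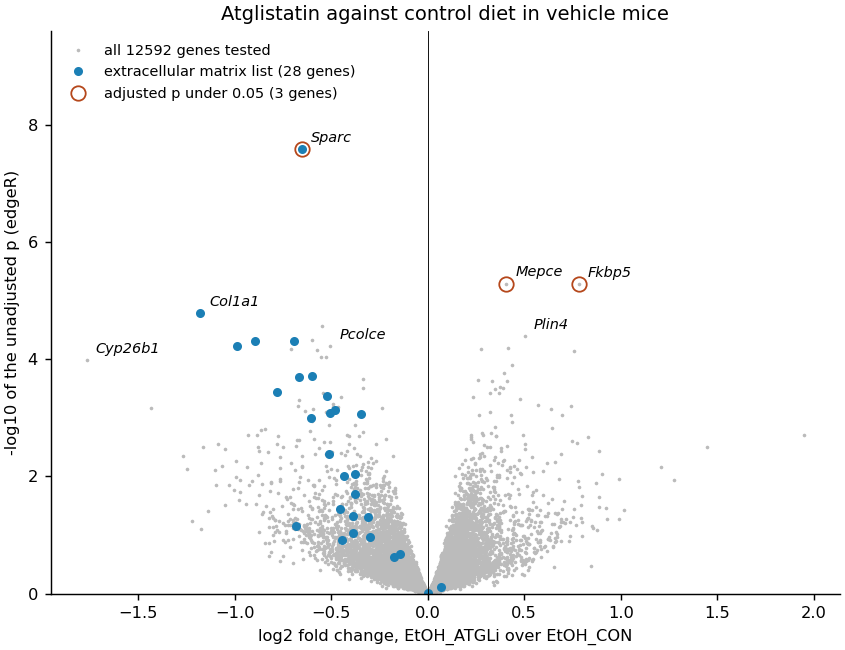
Each point is 1 of 12592 genes, with the log2 fold change of EtOH_ATGLi over EtOH_CON on the horizontal axis and -log10 of edgeR's unadjusted p on the vertical axis. Blue points are the 28 extracellular matrix genes tested, 27 of which lie left of 0, and red rings mark Sparc, Fkbp5 and Mepce, the 3 genes with an adjusted p under 0.05.

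The number of called genes depended on the test. DESeq2's Wald test called 38 genes (16 higher, 22 lower), limma voom called 30 (8 higher, 22 lower), and edgeR on counts divided by 2 called 23; all 3 sets held Sparc, Fkbp5 and Mepce. When edgeR was fitted to the 20 vehicle libraries alone, 38 of 11901 genes were called (0.319%), 8 higher (0.0672%) and 30 lower (0.252%), with Sparc and Mepce among them and Fkbp5 at an adjusted p of 0.0608. Tested against a fold change of 1.2 instead of against no change, edgeR called none of the 12592 genes, with 201 at an unadjusted p under 0.05. Leaving out 1 library at a time gave 1 to 21 calls. The number was 21 without EtOH_ATGLi p12, 12 without EtOH_CON p16, 5 to 8 without EtOH_CON p01, p04 or p12 or EtOH_ATGLi p09 or p13, and 1 (Sparc) without EtOH_CON p03, p09 or p11 or EtOH_ATGLi p06, p07, p08, p11 or p14.

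Sparc, Fkbp5 and Mepce are introduced here with the bases upstream of the RefSeq transcription start where RefSeq's promoter table (GRCm38.p6) has an entry, since they carry the called changes. Col1a2 is shown beside them for the collagen group described further on. Mepce and Col1a1 are named only. Each run is the 250 bases before the start, 5′ to 3′ on the gene's strand, in lower case with any match to a searched motif in capitals. Sparc lies at chr11:55420081-55420330 (minus strand), Fkbp5 at chr17:28486150-28486399 (minus strand) and Col1a2 at chr6:4505368-4505617 (plus strand). Because the annotation also holds transcripts that start further upstream, the Sparc, Fkbp5 and Col1a2 windows lie within the gene spans given below.
Sparc: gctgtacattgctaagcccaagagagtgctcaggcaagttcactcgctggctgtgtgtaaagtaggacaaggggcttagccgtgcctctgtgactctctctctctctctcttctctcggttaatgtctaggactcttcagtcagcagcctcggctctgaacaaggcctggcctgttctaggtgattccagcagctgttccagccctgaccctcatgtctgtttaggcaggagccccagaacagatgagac
Fkbp5: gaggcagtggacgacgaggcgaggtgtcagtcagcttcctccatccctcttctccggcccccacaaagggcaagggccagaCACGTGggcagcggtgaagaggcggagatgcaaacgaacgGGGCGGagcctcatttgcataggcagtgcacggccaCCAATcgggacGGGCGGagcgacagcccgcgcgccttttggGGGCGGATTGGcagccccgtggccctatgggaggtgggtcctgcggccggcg
Col1a2: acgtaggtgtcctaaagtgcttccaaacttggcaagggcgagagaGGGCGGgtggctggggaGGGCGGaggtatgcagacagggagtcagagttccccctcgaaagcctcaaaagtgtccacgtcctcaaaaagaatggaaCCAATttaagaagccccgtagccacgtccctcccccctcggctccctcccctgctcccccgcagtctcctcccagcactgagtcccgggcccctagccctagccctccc

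Searched on both strands were the GC box, with the letters GGGCGG, the CCAAT box, with the letters of its name, the TATA box, with the letters TATAAA, the E-box, with the letters CACGTG, and the palindromic glucocorticoid response element of 14 bases. Of 32851 RefSeq promoters of the same length, 32.74% held the GC box, 33.85% the CCAAT box, 12.37% the TATA box, 6.02% the E-box and 0.0304% the response element. The Fkbp5 window held 3 GC boxes, 2 CCAAT boxes and 1 E-box. The last GC box abuts the second CCAAT box, which is read on the other strand, so their capitals run together. The Col1a2 window held 2 GC boxes and 1 CCAAT box. None of these motifs occurred in the Sparc window. The response element was in none of the 3 windows, which says only that its letters are not there. GC content was 54.0% for Sparc, 68.0% for Fkbp5 and 62.0% for Col1a2, against a median of 52.4% for all promoters.

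Sparc encodes osteonectin, a secreted protein that binds collagen and takes part in matrix assembly (chromosome 11, 55394500 to 55423183, GRCm38). Its level in EtOH_CON was 225 CPM in the lowest library, 358 CPM at the median and 440 CPM in the highest. In EtOH_ATGLi the lowest, median and highest were 170, 232 and 276 CPM. The groups overlapped only through EtOH_CON p01, at 225 CPM: the other 9 EtOH_CON libraries, from 308 CPM upward, lay above all 10 on atglistatin. The means fell from 354 ± 63.7 to 225 ± 35.7 CPM (SD, n = 10 each), a log2 fold change of -0.65 (SE 0.10, 95% confidence interval -0.86 to -0.45, edgeR adjusted p = 3.29e-04), or 0.636 times the control level. Without p01 it was -0.71 (adjusted p = 1.08e-05), and the call held when any 1 of the 20 libraries was left out. In bulk RNA, fewer cells that express a gene and less RNA per cell cannot be told apart, here or for any gene below.

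Fkbp5 encodes FKBP51, a co-chaperone that lowers the hormone affinity of the glucocorticoid receptor and is itself a target of that receptor (chromosome 17, 28399094 to 28517527). Its level was 18.8, 27.3 and 37.9 CPM in the lowest, median and highest EtOH_CON library and 29.2, 49.1 and 77.3 CPM in EtOH_ATGLi. The ranges overlapped, but 7 of 10 atglistatin libraries lay above every control library and all 10 lay above the control mean. The mean rose from 28.7 ± 6.97 to 49.4 ± 15.5 CPM (SD, n = 10 each), a log2 fold change of 0.78 (SE 0.15, 95% confidence interval 0.47 to 1.09, edgeR adjusted p = 0.0219), or 1.72-fold. For scale, Cort_CON libraries held 226.7 to 456 CPM, so every atglistatin library of the vehicle arm lay below every corticosterone control library. The call was lost in 9 of 20 fits that left out 1 library (EtOH_CON p02, p03, p09 and p11, and EtOH_ATGLi p06, p07, p08, p11 and p14), with adjusted p values of 0.0534 to 0.108 there. The log2 fold change stayed between 0.69 and 0.85 in all 20.

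Mepce encodes the methylphosphate capping enzyme of 7SK RNA, a part of the complex that holds the transcription elongation factor P-TEFb inactive (chromosome 5, 137781906 to 137787655). Its level was 7.89, 11.1 and 12.5 CPM in the lowest, median and highest EtOH_CON library and 13.3, 14.2 and 15.2 CPM in EtOH_ATGLi. All 10 atglistatin libraries lay above all 10 control libraries. Separation of this kind in either direction occurred in 4 of 12592 genes (0.0318%), the others being Pcolce, Cdc42ep2 and Serpine2, all lower on atglistatin. The rise in Mepce was modest in size, from 10.7 ± 1.38 to 14.2 ± 0.593 CPM (SD, n = 10 each), a log2 fold change of 0.41 (SE 0.08, 95% confidence interval 0.24 to 0.57, edgeR adjusted p = 0.0219), or 1.33-fold. The call was lost in 8 of the 20 fits with 1 library left out (EtOH_CON p03, p09 and p11, and EtOH_ATGLi p06, p07, p08, p11 and p14), at adjusted p values of 0.0534 to 0.0977, while the log2 fold change stayed between 0.37 and 0.43 in all 20.

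**Figure D2:**
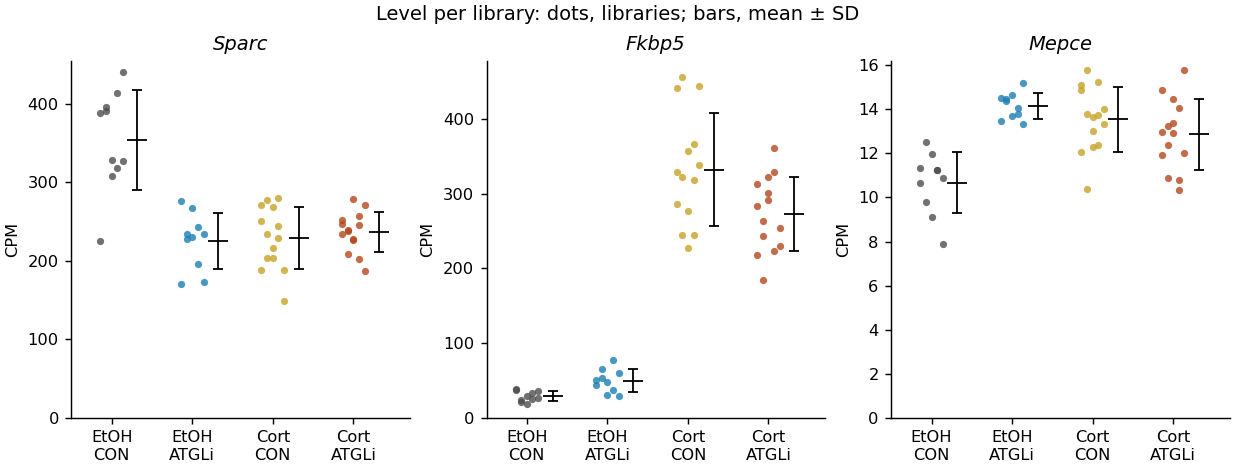
Dots are libraries, with the level in CPM on the vertical axis (from 0) and the 4 groups on the horizontal axis, and bars are the mean ± SD of 10 or 14 libraries. In the vehicle arm Sparc is lower on atglistatin in all libraries but for the overlap with 1 control library at 225 CPM, Fkbp5 is higher with overlap, and Mepce is higher without overlap.

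Sparc was the single called member of the extracellular matrix group, but most of that group lay on the same side. Of 28 matrix genes tested, 27 had a negative log2 fold change, against 50.9% of all genes, and the median was -0.47, against -0.003 for all genes. An unadjusted p under 0.05 was reached by 20 of the 28, all lower, where 3.38% of all genes reached it in that direction. This list, like the others below, was chosen with earlier results of these data known, so its counts are not independent evidence. Of the fibrillar collagens, Col1a1, an alpha chain of type I collagen (chromosome 11, 94936224 to 94953042), was at 148, 232 and 403 CPM in the lowest, median and highest EtOH_CON library and at 36.6, 113 and 151 CPM in EtOH_ATGLi. A single atglistatin library, p12 at 151 CPM, lay above the lowest control library. The log2 fold change of Col1a1 was -1.18 (SE 0.24, 95% confidence interval -1.67 to -0.69), and its edgeR adjusted p of 0.0514 missed the threshold. EtOH_CON p01 held the highest Col1a1 level, and without it the difference was -1.06 (adjusted p = 0.0997).

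The other chain of type I collagen and type III collagen gave the same picture. Col1a2 (chromosome 6, 4504814 to 4541544) was at 206, 302 and 398 CPM in the lowest, median and highest EtOH_CON library and at 97.7, 154 and 265 CPM in EtOH_ATGLi. Col3a1 (chromosome 1, 45311538 to 45349706) was at 79.1, 121 and 150 CPM in EtOH_CON and at 23.2, 62.8 and 87.3 CPM in EtOH_ATGLi. For both genes 8 of 10 atglistatin libraries lay below every control library. Their log2 fold changes were -0.90 (SE 0.20) for Col1a2 and -0.99 (SE 0.22) for Col3a1, each at an edgeR adjusted p of 0.0572. Col6a2, a chain of the microfibrillar type VI collagen around muscle fibres, was at -0.69 (SE 0.16), also with an adjusted p of 0.0572. Type V collagen, which nucleates type I fibrils, was at -0.60 for Col5a1 and -0.66 for Col5a2 (adjusted p = 0.111 for each). Col15a1, a basement membrane collagen, was at -0.78 (adjusted p = 0.137), with 9 of 10 atglistatin libraries below every control library. Of all 29 collagen genes tested, 27 were negative, 15 had an unadjusted p under 0.05 (all lower), and the median was -0.45. Col6a6 and Col7a1 were the 2 with positive values, at 0.14 and 0.05.

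The summed level of the collagen genes per library was 716 to 1161 CPM in EtOH_CON (median 995) and 361 to 758 CPM in EtOH_ATGLi (median 554). Of the atglistatin libraries, p12 and p13 lay above the lowest control library, p12 of EtOH_CON. Genes that fold, trim or cross-link collagen lay in the same direction by smaller amounts: 21 of 26 were negative, 7 had an unadjusted p under 0.05, all lower, and the median was -0.23. Pcolce, the enhancer of procollagen C-proteinase, separated the groups fully, at 26.1, 31.5 and 37.3 CPM in EtOH_CON (lowest, median, highest) and 17.4, 21.8 and 26.0 CPM in EtOH_ATGLi. Its log2 fold change was -0.50 (SE 0.12, edgeR adjusted p = 0.0572). Serpinh1, the collagen chaperone HSP47, was at -0.57 (SE 0.13, adjusted p = 0.0572), and Rcn3, a calcium-binding protein of the endoplasmic reticulum, at -0.55 (SE 0.13, adjusted p = 0.0649). Members outside this trend included the small proteoglycan Dcn, at 0.00 (95% confidence interval -0.21 to 0.21), and the cross-linking enzyme Lox, at 0.07 (-0.40 to 0.54).

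Whether these matrix genes were called turned on the model. In edgeR's fit of the 20 vehicle libraries alone, 9 of the matrix genes passed, all lower, namely Sparc, Col1a1, Col1a2, Col3a1, Col5a1, Col5a2, Col6a2, Col15a1 and Loxl2. Adjusted p there was 0.0422 for Col1a1, 0.0470 for Col1a2 and 0.0407 for Col3a1. DESeq2 on all libraries gave adjusted p values of 0.00208, 0.00776 and 0.00954 for Col1a1, Col1a2 and Col3a1, and limma voom gave 0.00931, 0.0200 and 0.00931. With counts divided by 2, edgeR gave Col1a1 an adjusted p of 0.0243. Over every alternative and left-out library, adjusted p ran from 0.00208 to 0.668 for Col1a1 and from 0.00931 to 0.154 for Col3a1, while all of them kept the negative sign.

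Markers of the connective tissue cells that make matrix were followed beside these genes. Of 10 markers of fibro-adipogenic progenitors, 9 were negative, with a median of -0.16. The summed level of the 10 was 825 to 1342 CPM in EtOH_CON and 684 to 1136 CPM in EtOH_ATGLi, and no marker was at 0. Pdgfra, the receptor that defines these cells, was at -0.04 (95% confidence interval -0.37 to 0.29), while Dpt and Cd34 were at -0.33 and -0.27 (edgeR adjusted p = 0.31 and 0.578). All 10 tendon cell markers were negative, with a median of -0.33 and summed levels of 284 to 575 CPM in EtOH_CON and 242 to 618 CPM in EtOH_ATGLi. Tnmd, tenomodulin, was at -0.45 (95% confidence interval -0.94 to 0.05) and Cilp2 at -0.58 (-1.07 to -0.10). No marker of either list passed the adjusted test; 3 fibro-adipogenic markers (Dpt, Cd34 and Lum) and 2 tendon markers (Cilp2 and Tnc) had an unadjusted p under 0.05, all lower. Summed levels overlapped between the diets for both lists, and the part of these cell types in the matrix values was not tested.

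**Figure D3:**
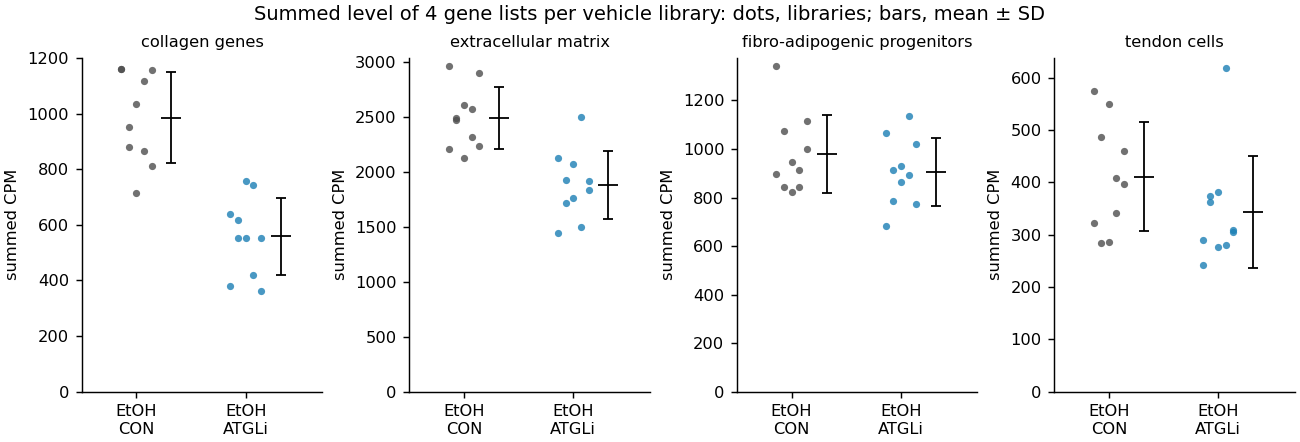
Dots are vehicle libraries, with summed CPM on the vertical axes (from 0) and the diet group on the horizontal axes, and bars are the mean ± SD (n = 10 each). Collagen genes separate the groups but for overlap between 716 and 758 CPM. Extracellular matrix sums overlap between 2125 and 2500 CPM, and summed fibro-adipogenic and tendon markers over most of their ranges.

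The gene of the drug's target did not pass the test. Pnpla2 was at 123, 150 and 185 CPM in the lowest, median and highest EtOH_CON library and at 126, 167 and 201 CPM in EtOH_ATGLi, nearly the same range. Its log2 fold change was 0.13 (95% confidence interval -0.20 to 0.46, edgeR adjusted p = 0.947), which leaves room for changes of up to 0.46 upward. RNA level does not report the activity of an inhibited enzyme. The activator Abhd5 was at -0.01 (95% confidence interval -0.17 to 0.16), the inhibitor G0s2 at 0.05 (-0.44 to 0.54), and Lipe at 0.13 (-0.17 to 0.43). None of the 25 genes of ATGL, its regulators and the lipid droplet passed the test. Of them, 17 were negative, the median was -0.05, and 3 had an unadjusted p under 0.05 (Plin4 higher, Plin2 and the droplet hydrolase gene Ldah lower).

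Among droplet coat proteins, Plin4, found in fat and muscle, lay highest. It was at 75.5, 89.2 and 124 CPM in the lowest, median and highest EtOH_CON library and at 95.7, 129 and 167 CPM in EtOH_ATGLi. All 10 atglistatin libraries lay above the control mean and 6 lay above every control library. The log2 fold change of Plin4 was 0.50 (SE 0.11, 95% confidence interval 0.28 to 0.73, edgeR adjusted p = 0.0572), past the threshold with DESeq2 (adjusted p = 0.00954), limma voom (0.0339) and the 20 vehicle libraries alone (0.0330). Plin2, the coat protein that most tissues share, lay the other way, at -0.34 (95% confidence interval -0.65 to -0.04, adjusted p = 0.685). Plin5, which tethers droplets to mitochondria, was at 0.27 (-0.23 to 0.77).

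Targets of the fatty acid receptors PPAR did not pass the test. Pdk4, the kinase that blocks pyruvate oxidation and a standard PPAR and FoxO target, varied widely, from 7.33 to 67.5 CPM in EtOH_CON (median 23.3) and from 17.3 to 83.8 CPM in EtOH_ATGLi (median 45.7). Its log2 fold change of 0.80 had an interval of -0.03 to 1.63 (edgeR adjusted p = 0.753). Angptl4, a secreted lipoprotein lipase inhibitor, was at -0.41 (-1.33 to 0.50), at a mean of 2.05 CPM in EtOH_CON. EtOH_ATGLi p14 was high for Angptl4, and without it the difference was -0.80 (adjusted p = 0.872). Over the list of PPAR targets and fatty acid uptake, 17 of 22 were positive, the median was 0.09, and 1 gene, the thioesterase Acot1 at 0.89 (SE 0.38), had an unadjusted p under 0.05. Of 23 beta-oxidation genes 17 were positive, with a median of 0.05 and 2 with an unadjusted p under 0.05, both higher (Mlycd at 0.27 and Echs1 at 0.19). Nuclear oxidative phosphorylation genes had 50 of 62 negative, a median of -0.04 and none with an unadjusted p under 0.05.

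Genes of fatty acid synthesis and desaturation had negative values, with no call in the fit of all libraries. This held for all 16 tested, the median was -0.19, and 2 had an unadjusted p under 0.05. These were Scd2 at -0.62 (edgeR adjusted p = 0.571) and Elovl5 at -0.27 (adjusted p = 0.719). Fasn, fatty acid synthase, was at -0.40 (95% confidence interval -1.07 to 0.28), and Scd1, the main stearoyl-CoA desaturase, at -0.43 (-1.26 to 0.40). Srebf1, the transcription factor that drives them in response to insulin, was at -0.06 (-0.45 to 0.34). Library p10 of EtOH_CON held the highest Fasn (65.9 CPM, next highest 38.7) and Scd1 (183 CPM, next highest 87.0). Without p10 the differences of Fasn and Scd1 shrank to -0.15 and -0.09, and the median of the list to -0.09. Scd2 stayed between -0.72 and -0.56, uncalled, when any 1 vehicle library was left out. Cholesterol synthesis and uptake had 17 of 23 negative, a median of -0.14 and 2 with an unadjusted p under 0.05, both lower, among them Cyp51, a sterol demethylase, at -0.48.

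Insulin in the labels was lower on atglistatin. The value, whose unit and assay are not given, was 1.19, 2.39 and 3.46 in the lowest, median and highest EtOH_CON mouse and 0.464, 1.03 and 2.05 in EtOH_ATGLi. All 10 atglistatin mice lay below the control mean and 6 lay below every control mouse. The mean fell from 2.42 ± 0.705 to 1.17 ± 0.514 (SD, n = 10 each; two-sided permutation test, p = 0.00046, adjusted p = 0.00092 over the 2 label values). Fed glucose was 132.4 ± 10.9 in EtOH_CON and 120.9 ± 16.5 in EtOH_ATGLi (SD, n = 10 each), and the difference of -11.5 did not pass (two-sided permutation test, p = 0.0849). It passed when EtOH_CON p15, EtOH_CON p16 or EtOH_ATGLi p12 was left out (permutation p = 0.0439, 0.0496 and 0.00632). EtOH_ATGLi p12, at 159, had the highest glucose value of the 20 mice.

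**Figure D4:**
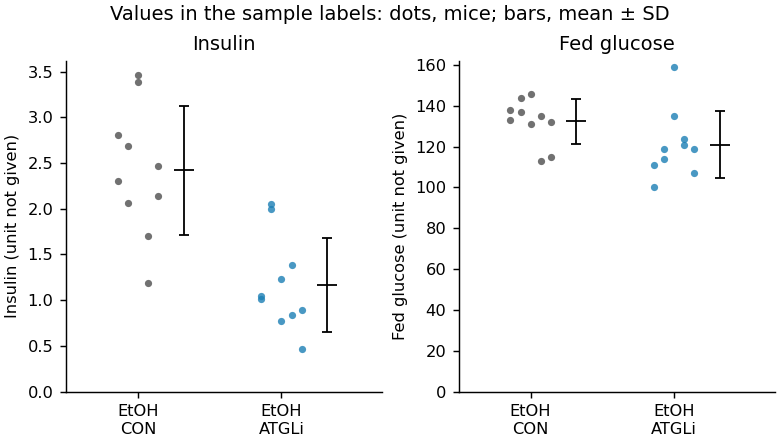
Dots are mice, with the value from the labels on the vertical axes (unit not given, from 0) and the diet group on the horizontal axes, and bars are the mean ± SD (n = 10 each). Insulin values on atglistatin lie between 0.464 and 2.05, with 6 below every control value, while the glucose ranges overlap, from 113 to 146 on control diet and from 100 to 159 on atglistatin.

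Within each diet group, insulin was set against the levels of Sparc, Fkbp5 and Mepce and the summed matrix list, which made 8 relations of 10 mice each. Pearson's r was largest for Sparc in EtOH_ATGLi, at 0.39 (permutation p = 0.261, adjusted p = 0.968; Spearman's rho 0.45, permutation p = 0.191, adjusted p = 0.945). Without the 2 mice farthest from the median insulin that r was 0.60. None of the 8 passed before or after adjustment. Between mice of 1 diet, insulin therefore gave no detectable relation with these levels at n = 10.

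Among genes of insulin, IGF and mTOR signalling, Igf1, the growth factor made in muscle as well as liver, lay lowest. It was at 29.4, 35.3 and 55.9 CPM in the lowest, median and highest EtOH_CON library and at 16.2, 24.02 and 37.05 CPM in EtOH_ATGLi. A single atglistatin library lay within the control range and 9 lay below it. The log2 fold change of Igf1 was -0.67 (SE 0.18, 95% confidence interval -1.04 to -0.30), with an edgeR adjusted p of 0.178 in all libraries and 0.0422 in the 20 vehicle libraries alone. Irs1, the docking protein of the insulin receptor, was at -0.37 (-0.66 to -0.07, adjusted p = 0.599), and Rptor, the mTORC1 subunit raptor, at -0.31 (-0.52 to -0.09, adjusted p = 0.474). The list of 28 had 18 positive values and a median of 0.05, so the negative values of these 3 were not shared by the list.

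Glucocorticoid receptor targets other than Fkbp5 did not pass. Of the 26 tested, the receptor gene included, 20 were positive and the median was 0.11. Unadjusted p values under 0.05 were reached by 3, all higher: Fkbp5, Glul (glutamine synthetase, 0.45, SE 0.17, edgeR adjusted p = 0.55) and Klf9 (a transcription factor, 0.29, SE 0.14, adjusted p = 0.746). Library p01 of EtOH_CON was low for Klf9, and without it the difference was 0.17 (adjusted p = 0.784). Tsc22d3, which encodes the receptor target GILZ, was at 0.04 (95% confidence interval -0.15 to 0.23). The ubiquitin ligases of muscle atrophy, Fbxo32 and Trim63, were at 0.08 (-0.28 to 0.45) and 0.07 (-0.42 to 0.57). Plasma corticosterone is not given in the labels.

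Circadian clock genes had the highest median of the lists, at 0.19. Of 19 clock genes, 11 were positive and 5 had an unadjusted p under 0.05, all higher, against 3.28% of all genes in that direction. Per3, a repressor of the clock, was at 7.48, 9.17 and 14.8 CPM in the lowest, median and highest EtOH_CON library and at 11.4, 16.1 and 20.2 CPM in EtOH_ATGLi, with 7 of 10 atglistatin libraries above every control library. Its log2 fold change was 0.69 (SE 0.20, edgeR adjusted p = 0.193 in all libraries and 0.0159 in the 20 vehicle libraries alone). Dbp, a transcription factor with a strong daily rhythm, was at 0.51 (SE 0.18, adjusted p = 0.495). The time of tissue collection is not given, and its part in these values was not tested.

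Cytosolic ribosomal protein genes were positive in 77 of 79, where 50.9% of all genes were negative. Their median of 0.08 lay between the quartiles of all genes, -0.11 and 0.10. An unadjusted p under 0.05 was reached by 5 of them, all higher, where 3.28% of all genes reached it in that direction and 6.66% in either. Fast fibre sarcomere genes had a median of 0.05, with Actn3, the actinin of fast fibres, at 0.28 (SE 0.09, edgeR adjusted p = 0.311) and Atp2a1, the calcium pump of fast fibres, at 0.20 (SE 0.07, adjusted p = 0.366). Slow fibre genes had a median of -0.08, proteasome subunits of 0.05, autophagy and lysosome genes of 0.06, and glycogen and glycolysis genes of 0.04. Macrophage markers were negative in 12 of 13 (median -0.23), Schwann cell and nerve markers in 9 of 9 (median -0.35) and adipocyte markers in 9 of 10 (median -0.31), with no unadjusted p under 0.05 among them. The summed adipocyte markers were 884 to 1602 CPM in EtOH_CON and 825 to 1340 CPM in EtOH_ATGLi. The lymphocyte list was represented by Ighm alone, the immunoglobulin heavy chain, at -0.98 (SE 0.42, adjusted p = 0.665).

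**Figure D5:**
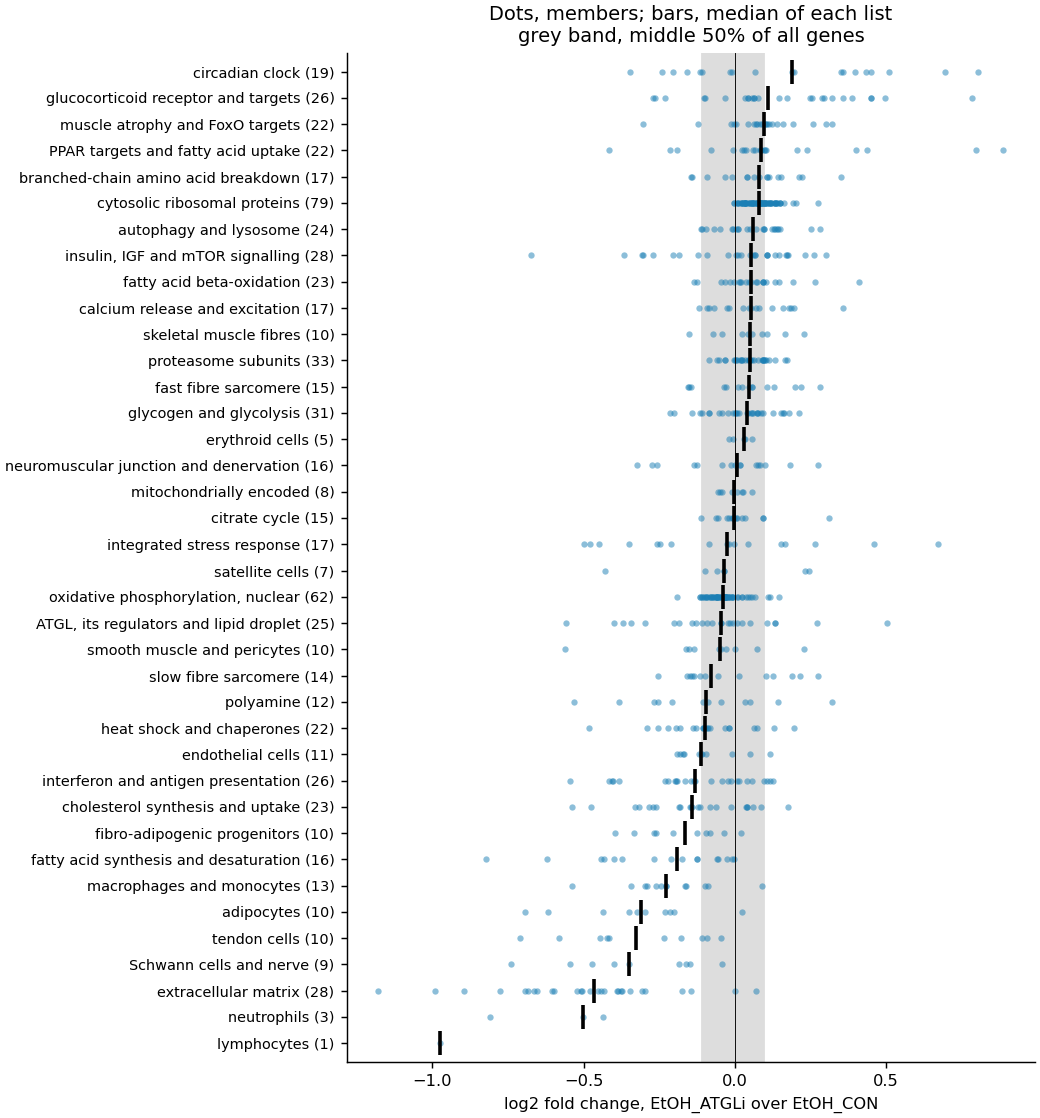
Each row is 1 of 38 gene lists with the number of genes tested in brackets, dots are its members and the bar its median, on a horizontal axis of log2 fold change of EtOH_ATGLi over EtOH_CON. The grey band is the middle 50% of all 12592 genes (-0.11 to 0.10), and among lists of at least 5 genes the extracellular matrix median lies farthest from it, at -0.47.

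Of 17 genes with an adjusted p between 0.05 and 0.10, 15 are named in the text, and those not yet described were chosen after their values were seen. Cyp26b1, the enzyme that breaks down retinoic acid in tissues, had the lowest fitted value, -1.77 (SE 0.41, edgeR adjusted p = 0.0689). Its level was 11.5, 43.4 and 215 CPM in the lowest, median and highest EtOH_CON library and 8.33, 17.6 and 23.2 CPM in EtOH_ATGLi. The highest value belonged to p01, and without that library the difference was -1.24 (adjusted p = 0.274). With all libraries, the adjusted p of Cyp26b1 was 0.0411 in edgeR on counts divided by 2, 0.00954 with DESeq2 and 0.273 with limma voom. In the 20 vehicle libraries alone it was 0.138 (edgeR). Rflnb, a regulator of filamin, was at -0.55 and Ccdc134, a secreted protein, at -0.60 (adjusted p = 0.0572 each). On the higher side, Galnt15, which starts O-linked glycosylation, was at 0.76, Zc3h6, a zinc finger gene, at 0.42, and Hbp1, a repressor of cell cycle genes, at 0.28 (adjusted p = 0.0572 each), with Eef1aknmt, a methyltransferase of elongation factor 1A, at 0.44 (adjusted p = 0.0776). EtOH_ATGLi p14 held 26.2 CPM of Galnt15, against 15.3 CPM in the next library. The Galnt15 log2 fold change ran from 0.57 to 0.83 with 1 library left out. Its adjusted p was 0.00776 with DESeq2 and 0.126 with limma voom. The immediate early gene Egr1 was at -1.25 with a wide interval of -2.14 to -0.35 (adjusted p = 0.503). Of the remaining genes whose groups did not overlap, Cdc42ep2, an effector of the GTPase CDC42, was at -0.49 and Serpine2, a secreted protease inhibitor, at -0.24 (adjusted p = 0.178 each).

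The response to atglistatin was then tested against the response in corticosterone mice, in the same fit. The 2 responses share no library. An ethanol value is labelled for vehicle mice only, and the part of ethanol in differences between the water treatments was not tested. Fed glucose in the labels was 131 to 407 in Cort_CON and 95 to 138 in Cort_ATGLi. Insulin in the labels was 9.31 to 39.8 in Cort_CON and 2.19 to 36.0 in Cort_ATGLi. These 2 groups thus differed in glucose range as well as in diet. The part of glucose or insulin in the differences below was not tested. The difference passed for 5 of 12592 genes (0.0397%), with 695 (5.52%) at an unadjusted p under 0.05. Between the diets in corticosterone mice 201 genes (1.6%) were called. That count rests on 14 libraries in each group against 10 in each vehicle group, so it cannot be set directly against the vehicle count. Sparc did not follow its vehicle response there: Cort_CON libraries were at 149, 231 and 280 CPM (lowest, median, highest) and Cort_ATGLi libraries at 187, 239 and 278 CPM. That is a log2 fold change of 0.05, and the difference between the responses was -0.70 (SE 0.13, edgeR adjusted p = 0.0121). The Cort_CON mean, 229 ± 39.4 CPM (SD, n = 14), was near the EtOH_ATGLi mean of 225 CPM. Fkbp5 had opposite signs, 0.78 in vehicle mice and -0.28 in corticosterone mice, with a difference of 1.07 (SE 0.20, adjusted p = 0.0121). Its levels with corticosterone were 332 ± 75.5 CPM on control diet and 273 ± 50.2 CPM on atglistatin (SD, n = 14 each). For Mepce the difference of 0.48 did not pass (SE 0.11, adjusted p = 0.0545).

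The other genes with different responses were called in corticosterone mice and not in vehicle mice in the fit of all libraries. Lonrf1, a RING finger gene, was at 15.6, 18.7 and 22.5 CPM in the lowest, median and highest EtOH_CON library and at 10.5, 14.3 and 16.7 CPM in EtOH_ATGLi, with 7 of 10 atglistatin libraries below every control library. Its log2 fold change was -0.41 in vehicle mice (edgeR adjusted p = 0.311, and 0.0330 in the 20 vehicle libraries alone) and 0.44 in corticosterone mice (adjusted p = 0.0231), a difference of -0.84 (SE 0.17, adjusted p = 0.0176). Itgb5, the integrin beta 5 subunit, was at -0.09 in vehicle mice and 0.42 in corticosterone mice, a difference of -0.50 (SE 0.10, adjusted p = 0.0176). Tmem52, a membrane protein gene, was at 0.27 and -0.29, a difference of 0.57 (SE 0.12, adjusted p = 0.0427). The differences for Sparc and Fkbp5 held in all 20 fits that left out 1 vehicle library. Those of Itgb5 and Lonrf1 were lost in 1 fit, without EtOH_ATGLi p14 (adjusted p = 0.0507 for both), and that of Tmem52 in 13. Col1a1, Col1a2 and Col3a1 were negative in both water treatments. They were at -1.18, -0.90 and -0.99 in vehicle mice and -0.41, -0.49 and -0.60 in corticosterone mice. The corticosterone values did not pass (edgeR adjusted p = 0.44, 0.166 and 0.136). Mean levels there were already low on control diet, at 19.3, 38.1 and 15.1 CPM in Cort_CON against 238, 301 and 120 CPM in EtOH_CON. The differences between the 2 responses of these genes did not pass (adjusted p = 0.858, 0.983 and 0.999). The median of the matrix list was -0.12 in corticosterone mice.

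The strand setting of the counting is not given, so reads of a gene cannot be told apart from those of a counted gene that overlaps it on the opposite strand. Such pairs among named genes included Plin4 with Hdgfl2, G0s2 with Lamb3, Srebf1 with Rai1, Pcolce with Gm36266, Hbp1 with Cog5, Zc3h6 with Gm10762, Dbp with Sphk2, Glul with Teddm2, Cyp51 with Akap9, Echs1 with Paox and Atp2a1 with Rabep2. On the same strand, Per3 overlaps Camta1 and Col5a2 overlaps Gm38211. Sparc, Fkbp5, Mepce, Col1a1, Col1a2 and Col3a1 overlap no other counted gene.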

How the data were processed

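RNA of 48 mouse muscle samples was sequenced from its 3′ ends with a QuantSeq kit (50 bp forward reads). This is recorded in the labels' protocols. The values tested are the deposited raw counts of 14125 genes. The submitters' processing notes name the build GRCm38, R 3.6.1 and DESeq2 1.24.0. The aligner, counting program, annotation and strand setting are not given in these sources. The other deposited table, a normalized signal equal to the count divided by a size factor, served only for gene symbols. No source explains the even counts. Counts were tested as deposited, and divided by 2 as an alternative. They come from 3′ ends and are not scaled by gene length, and no molecular identifiers are named, so reads are not independent molecules.

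Genes were kept by filterByExpr (minimum count 10, minimum total 15), which removed 1533. Libraries were scaled by TMM and all 48 were fitted in 4 groups with edgeR 4.0.16 (R 4.3.3), quasi-likelihood, robust, two-sided, with a threshold of 0.05 after Benjamini-Hochberg adjustment over 12592 genes. CPM was computed from the counts with TMM scaling, and intervals are 95%. Insulin and glucose were compared by permutation tests with 100000 resamples (scipy 1.17.1). Alternatives were DESeq2 1.42.0, limma 3.58.1 voom, other scaling and filters, the vehicle libraries alone, a replicate block and leaving out each library. Scripts were tested on simulated data. All 90 pairs of libraries within a vehicle group differed by more than sampling noise (chi-square of at least 8.38 for each degree of freedom).

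Named genes were the called ones (at most 12 in each direction with a mean of at least 5 CPM), called members of lists with at least 3 or 25% called, which no list reached, and 12 genes always named (Pnpla2, Abhd5, G0s2, Lipe, Plin2, Plin5, Fkbp5, Pdk4, Angptl4, Srebf1, Fasn and Scd1). All other named genes were chosen after their values were seen, and a few genes are not reported here. The members and the gene lists were chosen with earlier results of these data known, and the collagen gene and collagen processing lists were added last, so no list count is independent evidence. Gene positions are from GENCODE M21 (GRCm38), in which 14094 genes were placed, and promoters from RefSeq (GRCm38.p6).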

Additional observations from a re-analysis of the deposited data

Results flagged for a closer look

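Values in which 1 library lay far from the other 9 of its group were looked for in 212 groups of 10, and 22 were found. For normally distributed values chance gives about 1 in 20. Levels in CPM were not checked for that distribution, so this rate need not hold for them. The groups share libraries and genes, so the flags are not independent. In EtOH_CON, library p10 was high for genes of lipid synthesis and breakdown, with 29.001 CPM for Lipe, 65.9 CPM for Fasn, 183 CPM for Scd1, 9.34 CPM for Cyp51 and a summed 591 CPM for the fatty acid synthesis list. Library p01 was high for Col15a1 (30.8 CPM), Cyp26b1 (215 CPM), Serpine2 (151 CPM) and the summed neuromuscular junction and denervation list (165 CPM). It was low for Klf9 (80.0 CPM) and for the summed calcium release and excitation list (8449 CPM). Library p12 was high for Tsc22d3 (253 CPM).

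In EtOH_ATGLi, library p14 was high for Angptl4 (4.47 CPM), Galnt15 (26.2 CPM), Eef1aknmt (12.3 CPM), Cfd, an adipocyte gene (226 CPM), the summed macrophage markers (167 CPM) and the summed erythroid markers (1627 CPM). Library p12 was high for Col15a1 (20.0 CPM) and Irs1 (115 CPM). Library p10 was high for the summed Schwann cell markers (364 CPM), and p13 for the summed tendon markers (618 CPM).

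For 5 genes the response to atglistatin in vehicle mice differed from that in corticosterone mice by edgeR's test of the difference itself. The log2 response in vehicle mice minus that in corticosterone mice was -0.70 for Sparc, 1.07 for Fkbp5, -0.84 for Lonrf1, -0.50 for Itgb5 and 0.57 for Tmem52.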

How the results depend on the processing

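The fitted values of Sparc, Fkbp5 and Mepce kept their sign under every alternative run, while the number of called genes moved. Against 3 in all libraries it was 38 with DESeq2, 30 with limma voom, 23 with halved counts, 38 in the 20 vehicle libraries alone, 0 against a fold of 1.2, and 5 without p01 of EtOH_CON and p13 of EtOH_ATGLi, an alternative chosen after seeing the data. Leaving out 1 library gave 1 to 21 calls. It was 4 with DESeq2 size factors and 3 with no filter on low counts. Genes whose response differed between water treatments numbered 17 with DESeq2 and 2 to 7 with 1 library left out. The fed glucose difference ran from -15.7 to -9.18 and the insulin difference from -1.39 to -1.13 with 1 mouse left out.

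Replicate numbers 9 to 12 occur in both groups, but deviations of same-numbered libraries correlated at 0.09, 0.15, -0.005 and -0.06, so the numbers were not taken as pairs. With the replicate block, 21 genes were called in those 8 libraries, and 0 without it (1086 and 980 at an unadjusted p under 0.05, of 11987 tested). Of Sparc, Fkbp5 and Mepce, Sparc alone was called with the block. Fasn was called at -0.82 with the block (adjusted p = 0.00537) and not called at -0.88 without it, and the median of the fatty acid synthesis list was -0.46 and -0.47.

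Signs turned for genes that no fit with all vehicle libraries called. In the block fit and the unblocked fit of the 8 libraries, Pnpla2 was at -0.019 and -0.016, G0s2 at -0.74 and -0.79, Lipe at -0.12 and -0.14, Plin5 at -0.32 and -0.33, and Itgb5 at 0.066 and 0.066. With 1 library left out, Abhd5 ran from -0.026 to 0.018, G0s2 from -0.081 to 0.18 and Srebf1 from -0.10 to 0.017. Without p01 and p13 together, Abhd5 was at 0.016 and Srebf1 at 0.0076. The cause of these shifts was not tested. Of the values of single genes and lists under an alternative, 1864 kept their direction and side of the threshold, 113 gained a call, 39 lost one, 23 reversed and 2 moved. With 10 mice in each group, the median 95% interval of genes at 5 CPM or more reached 0.21 to either side on the log2 scale. That interval is not adjusted for the number of genes tested, whereas calls were made on the adjusted p. A typical gene therefore needed a difference larger than 0.21 to be called, and larger changes than that can lie among the uncalled genes. The smallest called change was that of Mepce, at 0.41.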
